A study of Mus musculus with 82 samples.

Results

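WSB/EiJ is an inbred mouse strain derived from wild-caught mice of the subspecies Mus musculus domesticus. Its naive CD4 T cells were read on 2 arrays, chosen by the strain label, of 82 arrays in all. These were compared with 72 arrays of 35 other strain groups, called classical here, each group entering as its mean on the log2 scale. The remaining 8 arrays are of 4 strains of other subspecies origin, namely MSM/Ms and JF1/Ms from Japan, CAST/EiJ and PWD/PHJ, which serve as a second comparison.

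All arrays are of spleen cells from male mice, sorted as CD3+CD4+CD62L+ and negative for a panel of markers that included CD8, CD11c, CD25, CD49b, Gr1 and Ter119. The labels give the age as 6 weeks and the series description as 5 weeks, and that description also mentions granulocytes of bone marrow. Each array is one pool of 2 to 3 mice, so differences between single animals were not measured. The classical groups are 129S1/SvImJ, A/J, AKR/J, BALB/cByJ, BPL/1J, BTBR T+ tf/J, C3H/HeJ, C57BL/10J, C57BL/6J, C57BLKS/J, C57L/J, CBA/CaJ, CBA/J, CE/J, DDY/JclSidSeyFrkJ, FVB/NJ, KK.Cg-Ay/J, which carries the Ay allele of agouti, LGJ, LP/J, MA/MyJ, MRL/MpJ, NOD/ShiLtJ, NON/ShiLtJ, NOR/LtJ, NZB/BINJ, NZW/LacJ, P/J, PL/J, RIIIS/J, SEA/GnJ, SJL/J, SM/J and SWR/J, with 2 groups called C57BR-titled and DBA2-titled because title and background label name different strains. Of the classical groups 33 hold 2 arrays, C57BL/6J holds 5 and SWR/J holds 1.

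Naive CD4 T cells have left the thymus but have not yet met their antigen. They rest in spleen and lymph nodes, scanning MHC class II molecules with their T cell receptor, and like nearly all nucleated cells they display peptides on MHC class I. Wild-derived strains such as WSB/EiJ were set up apart from the fancy-mouse stocks behind most laboratory strains and carry many alleles that those lack.

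The 2 WSB/EiJ arrays had median intensities of 108 and 113, inside the range of 102 to 142 over classical arrays, and correlated with each other at 0.997 over all 24922 probe sets. Their mean correlated with classical strain means at 0.983 to 0.992. Genes that define the sort were high, with Cd4 at 5378 and 5595 on the WSB/EiJ arrays, against a classical median of 5094, and Cd3e at 7625 and 8072, against 6886. Lists of markers of 8 other blood cell types lay inside the classical range in WSB/EiJ in all 8 cases, and 0 of their 96 genes passed the limma test, against 0.413 percent of all probe sets, with 3 at an unadjusted p under 0.05, against 5.62 percent. Of the list entries 82 of 97 lay at or below the median of all intensities, and Ms4a1 and Cd79a, which mark B cells, stood at 19.9 and 23.7 and at 42.5 and 46.0.

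The first comparison asked which genes set WSB/EiJ apart from classical strains. The surface protein gene Ms4a4b was close to background in WSB/EiJ and among the brighter genes in every classical strain, the MHC class I activator Nlrc5 lay lower on all 19 of its probe sets, 6 of which passed the test, and the splicing factor gene Cwc22 was 12.9-fold and 7.11-fold higher on its 2 probe sets. Of 24922 probe sets, 103 passed limma at an adjusted p under 0.05, which is 0.413 percent. In WSB/EiJ 71 were higher (0.285 percent of those tested) and 32 were lower (0.128 percent), and 46 differed at least 2-fold, 30 of them higher and 16 lower. At an unadjusted p under 0.05 there were 1401, with 716 higher (2.87 percent) and 685 lower (2.75 percent). The lone WSB/EiJ mean has no spread of its own in this test, which takes it to vary as classical strain means do.

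The called probe sets with 1 symbol came from 87 genes. The 30 genes described below are the 15 largest differences each way among named genes above the median intensity in WSB/EiJ or in classical strains. Bex1, Ccdc114, Gpr34, Tgfb3, Epb41l5, Klhl14, Lancl3 and Plekha8 met this only through their WSB/EiJ mean, as their classical means lay below the median. Their WSB/EiJ means lay outside all 35 classical means in 30 of 30 cases, as did those of all 103 called probe sets, so the selection fixes this count (3.07 percent of all probe sets lay above and 2.8 percent below). In 29 of the 30 both arrays lay outside every classical array, the exception being Hid1, against 1.22 percent of all probe sets. The genes were chosen from these same arrays, so this count was favoured too. Statements below that groups did not overlap are likewise description only. No probe sequence or WSB/EiJ genome was at hand, so base differences under the probes, gene copy number and reading of related genes were not tested for any of them. In sorted pools, fewer cells of a kind and less RNA per cell cannot be told apart either.

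Of the named genes that fell, 5 have roles at the T cell surface. Ms4a4b encodes a membrane-spanning protein of T cells that modulates their activation. Its intensity was 52.7 and 42.7 in WSB/EiJ, against a classical low of 1624, median of 3175 and high of 3935. No classical array came near the WSB/EiJ arrays, and the difference was -5.99 ± 0.32 (SE, log2; limma adjusted p = 1.99e-16). Trav7d-4, a variable segment of the T cell receptor alpha chain, had 52.1 and 68.0 in WSB/EiJ, against a classical range of 461 to 1474 with a median of 790, a difference of -3.70 ± 0.40 (adjusted p = 5.98e-08). The groups did not overlap. Of 6 probe sets for Trav segments it was the only one called, and because these segments are close copies of each other its reading is uncertain.

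Clec2d, whose product is a ligand of inhibitory receptors on natural killer cells, had 1645 and 1725 in WSB/EiJ, against 2206 to 3940 in classical strains with a median of 3164, and was the 1 gene called of 26 in the list of natural killer receptors and Clec2 ligands, against 0.128 percent of probe sets called lower (-0.90 ± 0.19, limma adjusted p = 0.0108). Tnfrsf25, also called death receptor 3, had 385 and 343 in WSB/EiJ, against 511 to 765 with a median of 652 (-0.83 ± 0.15, adjusted p = 0.00198). Cd101, a surface protein that restrains T cell activation, had 57.4 and 71.2, against 83.0 to 146 with a median of 115 (-0.86 ± 0.19, adjusted p = 0.0220). Both arrays of WSB/EiJ lay under every classical array for these genes, but the Cd101 call was lost without WSB/EiJ replicate 1 (adjusted p = 0.112), on quantile normalization (0.0521) and on median centring (0.0585).

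Most other named genes that fell encode intracellular proteins. Cdc14b, a phosphatase of the cell cycle, had 51.3 and 53.9 in WSB/EiJ, against 166 to 634 in classical strains with a median of 392 (-2.86 ± 0.46, limma adjusted p = 3.02e-04). Zfp738, of the zinc finger family, had 30.6 and 36.9, against 50.6 to 332 with a median of 193, and 2 of its 3 probe sets were called. Zinc finger genes of this family are close copies, so its reading is uncertain. Hid1, a protein of the Golgi and secretory granules, had 145 and 137, against 147 to 615 with a median of 477. SM/J, the classical strain with the least Hid1, reached the WSB/EiJ level, as its lowest array had 128.

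Izumo4, of a family named for a sperm protein, had 72.4 and 89.1 in WSB/EiJ, against 224 to 314 in classical strains with a median of 260 (-1.71 ± 0.13, limma adjusted p = 1.16e-11). The classical strains lay close together for Izumo4 and the groups were far apart. Tmem9b, a lysosomal membrane protein, differed by -1.05 (806 and 750 in WSB/EiJ, against 1122 to 2036), and the lipid flippase gene Atp10d by -0.88 (581 and 526, against 692 to 1274). Atp10d lay just inside the threshold (adjusted p = 0.0499852) and lost its call under 5 alternatives, with an adjusted p of up to 0.136. Commd8 differed by -0.84, with 205 and 210 in WSB/EiJ, against 306 to 498. Rpl12, a ribosomal protein gene with many near-identical copies, differed by -0.99, with 223 and 204, against 282 to 567.

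**Figure D1:**
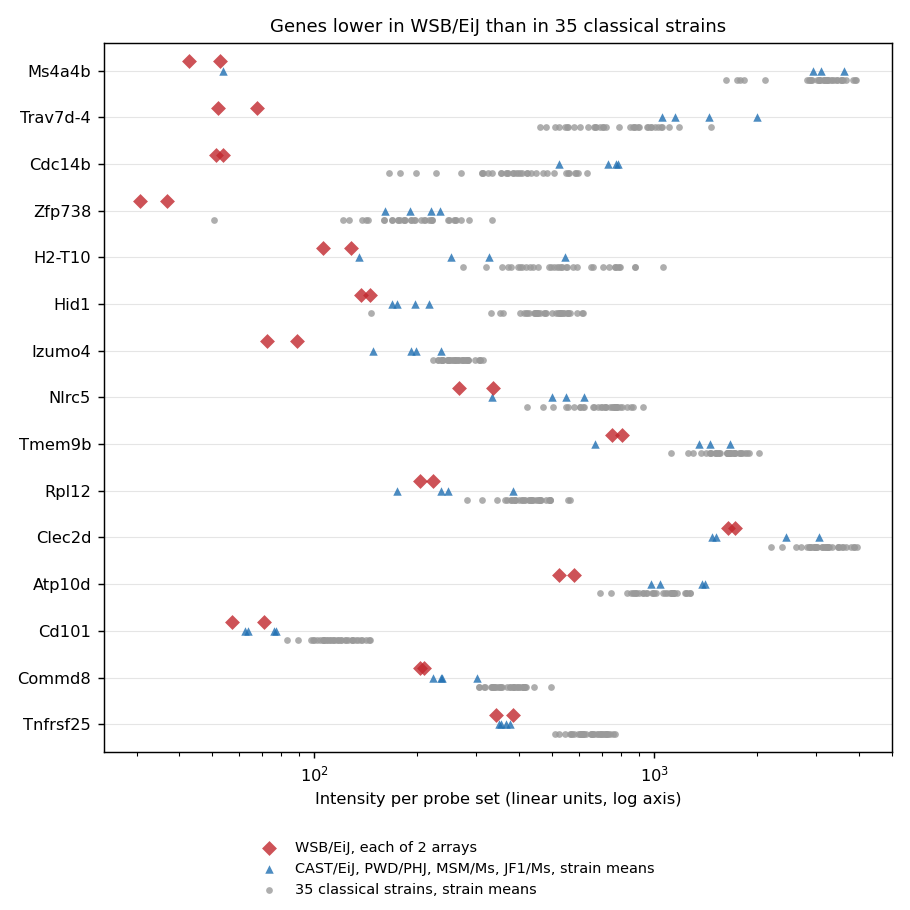
Intensity per probe set on a log axis for the 15 named genes that were lower in WSB/EiJ. Red diamonds are the 2 WSB/EiJ arrays, blue triangles the means of the 4 strains of other subspecies and grey circles the 35 classical strain means; Ms4a4b shows 52.7 and 42.7 in WSB/EiJ and at least 1624 in classical strains, with MSM/Ms at 54.1 beside WSB/EiJ.

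Ms4a4b belongs to a family of related membrane proteins, of which all 16 listed genes were measured. Of these 1 passed the test, against a background of 0.128 percent of probe sets called lower, and the family's median difference was -0.05, against -0.02 over all probe sets. In WSB/EiJ 12 of the 16 had intensities at or below the median of all values, among them Ms4a4b itself and the B cell gene Ms4a1, and Ms4a6b, Ms4a6c, Ms4a4c and Ms4a15 lay above it. Ms4a6b had 5261 and 5036 in WSB/EiJ, against 3516 to 5662 in classical strains with a median of 4453. Ms4a6c had 1437 and 1389, against 374 to 4316 with a median of 898. Ms4a4c had 276 and 290, against 138 to 1549 with a median of 728. WSB/EiJ lay inside the classical range for all 3 of these relatives of Ms4a4b.

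Ms4a4a, the nearest in name, stood above all 35 classical strains in WSB/EiJ, with 99.7 and 94.0, against 51.6 to 84.3 with a median of 67.4, but did not pass the test (0.52 ± 0.16, limma adjusted p = 0.236). The remaining members, Ms4a2, Ms4a3, Ms4a4d, Ms4a5, Ms4a6d, Ms4a7, Ms4a8a, Ms4a10, Ms4a13 and Ms4a15, differed by -0.39 to 0.07 and none passed the test. MSM/Ms, of the Japanese molossinus mice, had an Ms4a4b intensity of 54.1, whereas CAST/EiJ, PWD/PHJ and JF1/Ms had 2935, 3101 and 3620. In MSM/Ms Ms4a6c was also low, at 20.9, which was not the case in WSB/EiJ.

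**Figure D2:**
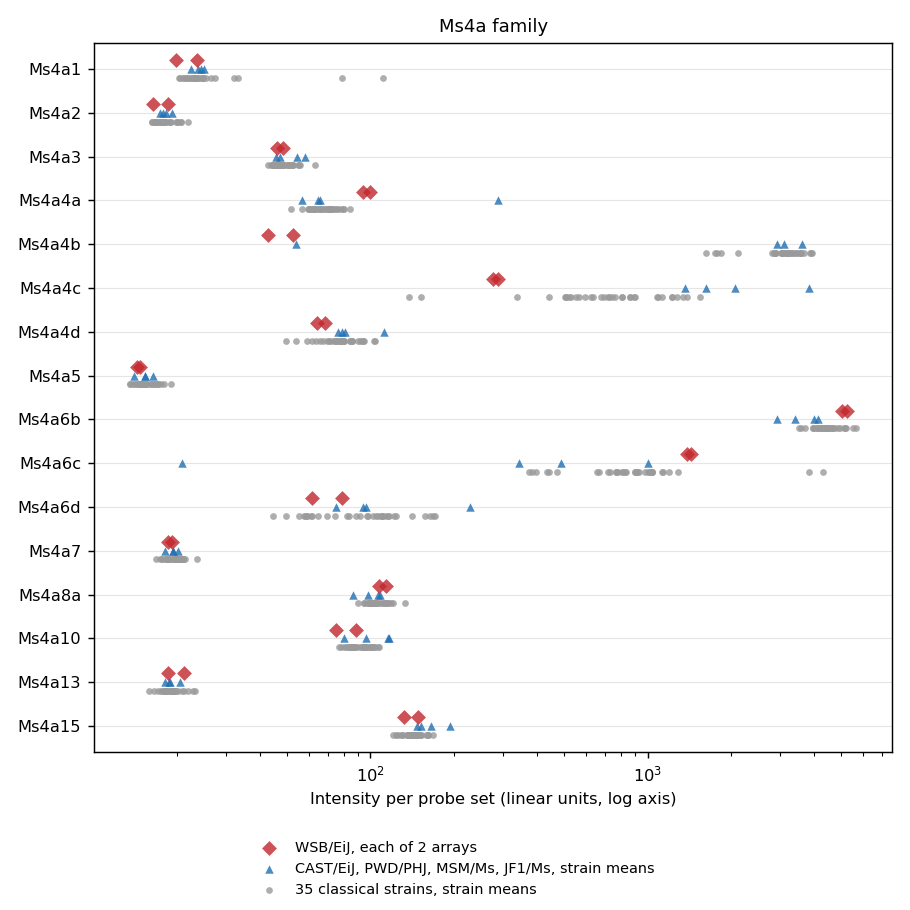
Intensity per probe set on a log axis for the 16 genes of the Ms4a family, with the 2 WSB/EiJ arrays as red diamonds, the 4 strains of other subspecies as blue triangles and the 35 classical strain means as grey circles. Only Ms4a4b parts the WSB/EiJ arrays widely from the classical strains; for Ms4a6b, Ms4a6c and Ms4a4c the WSB/EiJ arrays lie among them.

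Measured genes of MHC class I presentation mostly lay lower in WSB/EiJ, although few passed the test. Nlrc5 is a nuclear protein that drives transcription of MHC class I genes, and Tap1, Tap2 and Tapbp load peptides that the immunoproteasome subunits Psmb8, Psmb9 and Psmb10 help to cut. Of 26 genes on this list 17 were measured. Their H2 genes were of the H2-Q, H2-T and H2-M groups only, without H2-K1 or H2-D1. Of the 17 measured genes, 17 lay below the classical mean (16 after quantile normalization), against 55.4 percent of all probe sets. The list's median difference was -0.53, against -0.02 over all probe sets. In WSB/EiJ 9 of the 17 lay below all 35 classical strains, against 2.8 percent of all probe sets, and 10 had an unadjusted p under 0.05 in the lower direction, against 2.75 percent. After adjustment only H2-T10 was called among the probe sets that stand for the list's genes, against 0.128 percent overall. After quantile normalization, and without WSB/EiJ replicate 2, 2 genes were called, and over the scalings tried and without either array the list's median lay between -0.57 and -0.50.

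Nlrc5 was read by 19 probe sets along the gene, and 6 of them were called lower. On the probe set with the smallest p its intensity was 267 and 335 in WSB/EiJ, against 423 to 929 in classical strains with a median of 721 (-1.21 ± 0.25, limma adjusted p = 0.00865). Both WSB/EiJ arrays lay below every classical array on this probe set. All 19 probe sets lay below the classical mean, 19 had an unadjusted p under 0.05 and 16 lay below all 35 strain means, with differences from -1.31 to -0.35 and a median of -0.89. These probe sets share the same RNA and are not replicates. The number called was 3 without WSB/EiJ replicate 1, the array with the lower value on 17 of the 19, 7 without replicate 2 and 4 after centring each array on its median. The probe set that stands for Nlrc5 on the list had 1345 and 1489 in WSB/EiJ, against 1633 to 3515, and was not among the 6 (-0.76 ± 0.24, adjusted p = 0.286).

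The transcript 9330175E14Rik, next to Nlrc5 in gene order, also fell, with 78.5 and 85.0 in WSB/EiJ, against 157 to 700 in classical strains with a median of 401 (-2.27 ± 0.41, limma adjusted p = 0.00150). Whether its probes also read Nlrc5 was not tested.

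H2-T10, a nonclassical MHC class I gene whose product is known as a ligand of gamma delta T cells, had 106 and 128 in WSB/EiJ, against 274 to 1065 with a median of 530 (-2.22 ± 0.45, limma adjusted p = 0.00697). The groups did not overlap, but genes of this region exist in near-identical copies whose number differs between haplotypes, so its reading is uncertain. Tap1 had 1019 and 1077 in WSB/EiJ, against 1303 to 2437 with a median of 1972, and missed the threshold (-0.88 ± 0.22, adjusted p = 0.0683). Psmb10 had 422 and 445, against 528 to 1417 with a median of 909 (-1.08 ± 0.36, adjusted p = 0.405). Both lay under all classical strain means without passing the test.

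Values of the same kind were seen for Psmb9 (417 and 413 in WSB/EiJ, against 517 to 1065), Psmb8 (600 and 604, against 621 to 1393), Tap2 (360 and 403, against 422 to 700), H2-M3 (431 and 431, against 473 to 727) and H2-Q2 (169 and 175, against 184 to 312). None of these passed the threshold, with adjusted p from 0.185 to 0.405. In 5 of the 9 genes below all classical strains, the nearest of these was SWR/J, which was read on 1 array. B2m, the light chain shared by MHC class I molecules, did not follow, with 10715 and 11036 in WSB/EiJ, against 9680 to 12454 with a median of 11207 (-0.05 ± 0.09). The peptide trimmer Erap1 (-0.05 ± 0.17) and the TAP-binding relative Tapbpl (-0.08 ± 0.16) also lay inside the classical range. In the plot of single probe sets, MSM/Ms stood at or near the WSB/EiJ level over much of Nlrc5, for example at 334 on the probe set given first, while CAST/EiJ, PWD/PHJ and JF1/Ms had 499, 550 and 622. MSM/Ms also lay below all classical strain means for H2-T10 (136), Tap1 (1095), Psmb9 (394), Psmb8 (612), H2-M3 (439) and H2-Q2 (174). Its Psmb10 (909) and Tap2 (505) lay inside the classical range. CAST/EiJ and PWD/PHJ lay below that range for H2-M3 (445 and 455) and Psmb9 (451 and 482), and PWD/PHJ for H2-T10 (253). The low level of these genes was thus not particular to WSB/EiJ.

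The promoters of Tap1 and H2-M3 are shown as examples with a motif match, from genes that lay below all 35 classical strains. Those of Psmb10 and H2-Q2, also below all 35, held none of the motifs searched. Sequence near such start sites is where activators of MHC class I genes act. The sequences are those of the reference strain in RefSeq, build GRCm38.p6, from 250 bases before to 50 after the start. Tap1 is at chr17:34187306-34187605 on the plus strand and H2-M3 at chr17:37269984-37270283 on the plus strand. Capitals mark a Y box, CTGATTGG, read on the other strand in Tap1, and a GAS motif, TTCNNNGAA, in H2-M3.
Tap1: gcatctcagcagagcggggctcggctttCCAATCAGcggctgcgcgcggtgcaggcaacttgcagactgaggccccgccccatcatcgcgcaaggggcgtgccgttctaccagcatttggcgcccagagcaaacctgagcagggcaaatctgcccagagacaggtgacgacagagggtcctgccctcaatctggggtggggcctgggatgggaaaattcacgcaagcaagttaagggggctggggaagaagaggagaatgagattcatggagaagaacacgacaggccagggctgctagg
H2-M3: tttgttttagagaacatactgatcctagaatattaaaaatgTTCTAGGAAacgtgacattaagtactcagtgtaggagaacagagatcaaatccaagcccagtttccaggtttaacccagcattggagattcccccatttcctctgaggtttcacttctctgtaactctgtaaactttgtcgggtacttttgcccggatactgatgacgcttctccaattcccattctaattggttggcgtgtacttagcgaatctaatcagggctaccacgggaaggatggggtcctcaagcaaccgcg
The window of Psmb9, which is read from the minus strand, overlaps that of Tap1 and holds the same Y box. Of the 17 measured genes 12 had a promoter entry. The Y box was found on either strand in 2 of the 12, Tap1 and Psmb9, against 4.7 percent of 27025 genes with an entry. The GAS motif was found in 2, Psmb8 and H2-M3, against 9.55 percent, and the interferon-stimulated response element core, GAAA and GAAA with 2 bases between, in 2, Erap1 and B2m, against 3.99 percent. These matches describe the reference sequence only.

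**Figure D3:**
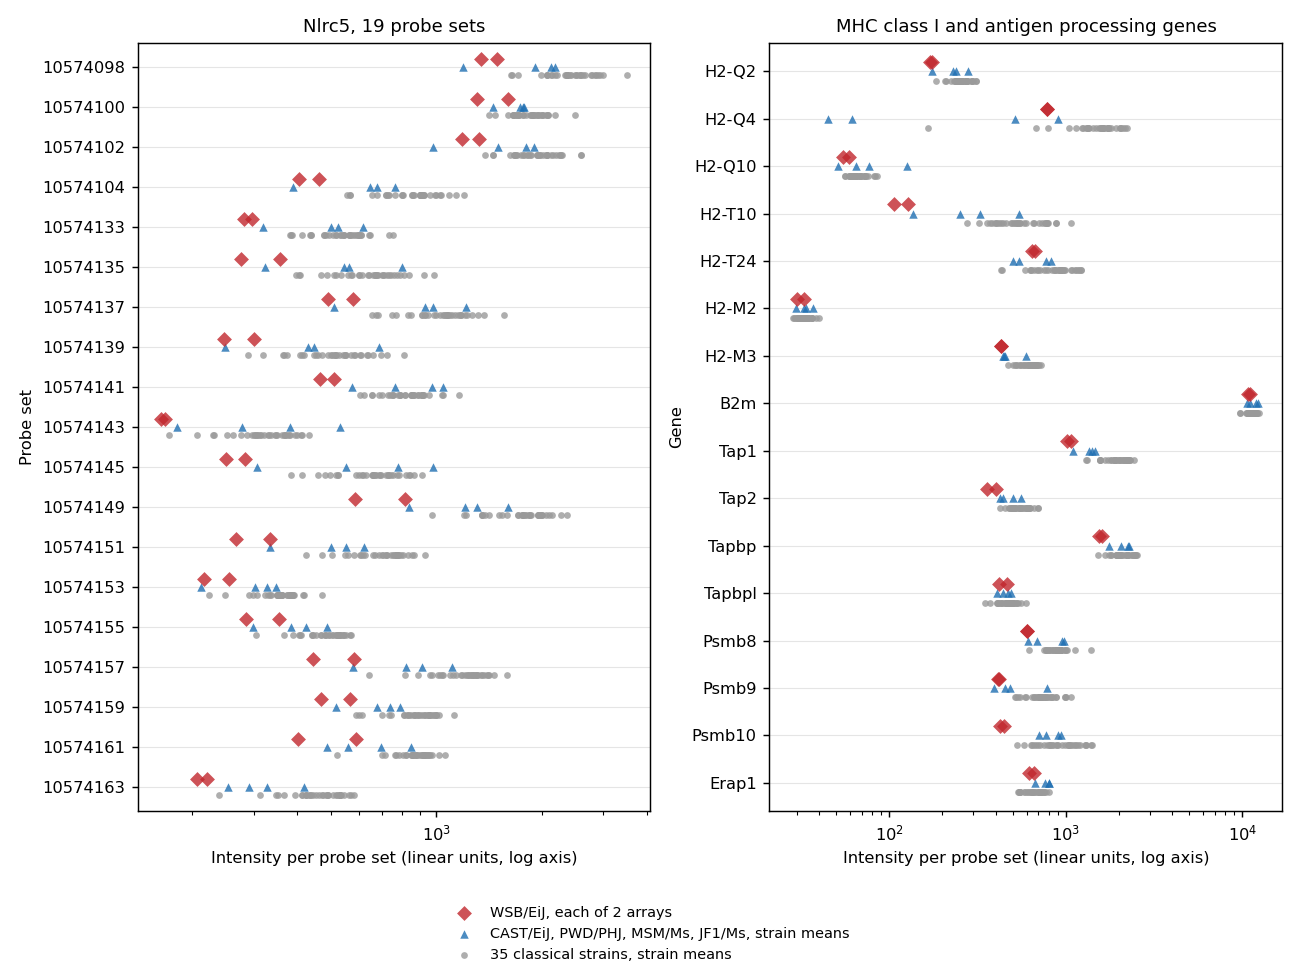
Left, intensity on a log axis for the 19 probe sets of Nlrc5, labelled by probe set number; right, the same for the other 16 measured genes of the MHC class I list. Red diamonds are the 2 WSB/EiJ arrays, blue triangles the 4 strains of other subspecies and grey circles the 35 classical strain means; WSB/EiJ lies at or beyond the low end of the grey points for most probe sets and genes, and among them for B2m.

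Interferon also acts on MHC class I genes, so the interferon lists were set beside them. Of 34 type I interferon response genes on the array 0 were called by limma, 31 lay below the classical mean (55.4 percent of all probe sets did; 30 after median centring and without WSB/EiJ replicate 1), 3 lay below all 35 strains (2.8 percent) and 6 had an unadjusted p under 0.05 in the lower direction (2.75 percent). The median difference was -0.51, between -0.51 and -0.45 over the scalings and single arrays tried. The mean of the list was 7.93 and 7.88 on the WSB/EiJ arrays on the log2 scale, against 7.68 to 8.88 in classical strains, so that 2 classical strains had less. Oas2, a sensor of double-stranded RNA, had 139 and 136 in WSB/EiJ, against 142 to 998 with a median of 407, and Usp18, which dampens interferon signalling, had 216 and 194, against 149 to 1517 with a median of 651. Neither passed the test (adjusted p = 0.792 and 0.806). Of 9 guanylate-binding proteins and immunity-related GTPases 7 lay below the classical mean with a median of -0.30 and 0 called, 2 having an unadjusted p under 0.05. Gbp9 had 460 and 478 in WSB/EiJ, against 470 to 1379, and did not pass (adjusted p = 0.512).

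Of the named genes that rose, 3 encode immune ligands or receptors, all of modest intensity. Ly96 encodes MD-2, which binds endotoxin together with Toll-like receptor 4. It had 448 and 576 in WSB/EiJ, against 57 to 232 in classical strains with a median of 126 (2.01 ± 0.43, limma adjusted p = 0.0144). The WSB/EiJ arrays lay above every classical array, and the 4 strains of other subspecies had 68.7 to 90.9. Tgfb3, a ligand of the transforming growth factor beta family, had 151 and 154, against 42.8 to 89.3 with a median of 52.1 (1.52 ± 0.20, adjusted p = 3.05e-06). Gpr34, a lysophospholipid receptor, had 147 and 105, against 30.6 to 73.7 with a median of 40.7 (1.61 ± 0.29, adjusted p = 0.00180). For both genes the groups did not overlap.

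Tnfsf13b, the B cell survival factor BAFF, is described although outside the 15, and was chosen after its values were seen. It had 147 and 134 in WSB/EiJ, against 58.4 to 76.4 in classical strains with a median of 66.3 (1.09 ± 0.12, limma adjusted p = 1.14e-07). Of the marker lists, those of myeloid cells, in which BAFF and Ly96 are known to be expressed, stood at 6.25 and 6.34 in WSB/EiJ on the log2 scale, against 6.22 to 6.75 in classical strains, ranking 30 of 36 from the top. That list had 0 of 18 genes called, and 15 of the 18 lay at or below the median of all intensities. The lists of neutrophil and dendritic cell markers ranked 12 and 23 of 36. Whether other cells added to the Tnfsf13b or Ly96 signal was not tested.

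Another 3 of the named genes that rose encode metabolic enzymes or carriers. Cyp2s1, a cytochrome P450, had 1276 and 1234 in WSB/EiJ, against 305 to 1096 in classical strains with a median of 414 (1.57 ± 0.34, limma adjusted p = 0.0177). Only RIIIS/J, at 1096, came near, and the call was lost when related strains were averaged (adjusted p = 0.0686). Ampd3, which deaminates AMP, had 1248 and 1179, against 270 to 776 with a median of 449 (1.50 ± 0.33, adjusted p = 0.0153). Slc25a24, a mitochondrial carrier of ATP-magnesium and phosphate, had 748 and 608, against 140 to 311 with a median of 211 (1.62 ± 0.28, adjusted p = 6.69e-04). The groups did not overlap for Ampd3 or Slc25a24. Nqo1, a quinone reductase and the 1 called gene of 30 measured in glutathione and xenobiotic metabolism (against 0.285 percent of probe sets called higher), had 52.0 and 48.2, against 21.3 to 33.3 (0.92 ± 0.14, adjusted p = 1.25e-04), though below the median of all intensities.

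Cwc22 was the brightest gene that rose. Its product loads exon junction complexes in the spliceosome. It had 6726 and 6329 in WSB/EiJ, against 349 to 949 in classical strains with a median of 507 (3.69 ± 0.26, limma adjusted p = 1.38e-12). Its second probe set had 1815 and 1572, against 124 to 296 with a median of 242 (2.83, adjusted p = 2.21e-09). On both probe sets every WSB/EiJ value lay above all other strains, as the 4 strains of other subspecies had 524 to 904 on the first and 265 to 295 on the second. Cwc22 lies in a segment known to vary in copy number between mouse strains, which these arrays did not measure.

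In most classical strains Bex1 was close to background and Ccdc114 lay below the median of all intensities. Bex1, an X-linked adaptor protein gene known from brain, had 164 and 194 in WSB/EiJ, against a classical median of 11.0 and a range of 9.86 to 83.1 (3.92 ± 0.48, limma adjusted p = 1.08e-06). With an offset of 32 added to the intensities, which weighs down values near background, the difference was 2.24 (adjusted p = 4.39e-08). CE/J held the high value of 83.1, and CAST/EiJ had 176 while PWD/PHJ, MSM/Ms and JF1/Ms had 11.1, 11.1 and 11.7. Ccdc114, of the docking complex of ciliary dynein, had 498 and 557 in WSB/EiJ, against 54.5 to 280 with a median of 63.9 (2.99 ± 0.37, adjusted p = 9.65e-07). RIIIS/J held the high value of 280. For both genes the WSB/EiJ arrays lay above every classical array.

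The other named genes that rose did so by 1.24 to 1.45. They were Apbb2, an adaptor that binds amyloid precursor protein (283 and 340 in WSB/EiJ, against 78.3 to 183), Epb41l5 of the FERM protein family (177 and 176, against 47.4 to 112), Klhl14 of the kelch-like family (134 and 134, against 42.3 to 68.1), Lancl3 (106 and 142, against 44.4 to 62.4), the transcription factor Glis3 (331 and 359, against 109 to 209) and Plekha8, which carries glycolipids (300 and 213, against 69.8 to 167). None of these overlapped with a classical strain. Plekha8 lost its call without WSB/EiJ replicate 1 (limma adjusted p = 0.122).

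**Figure D4:**
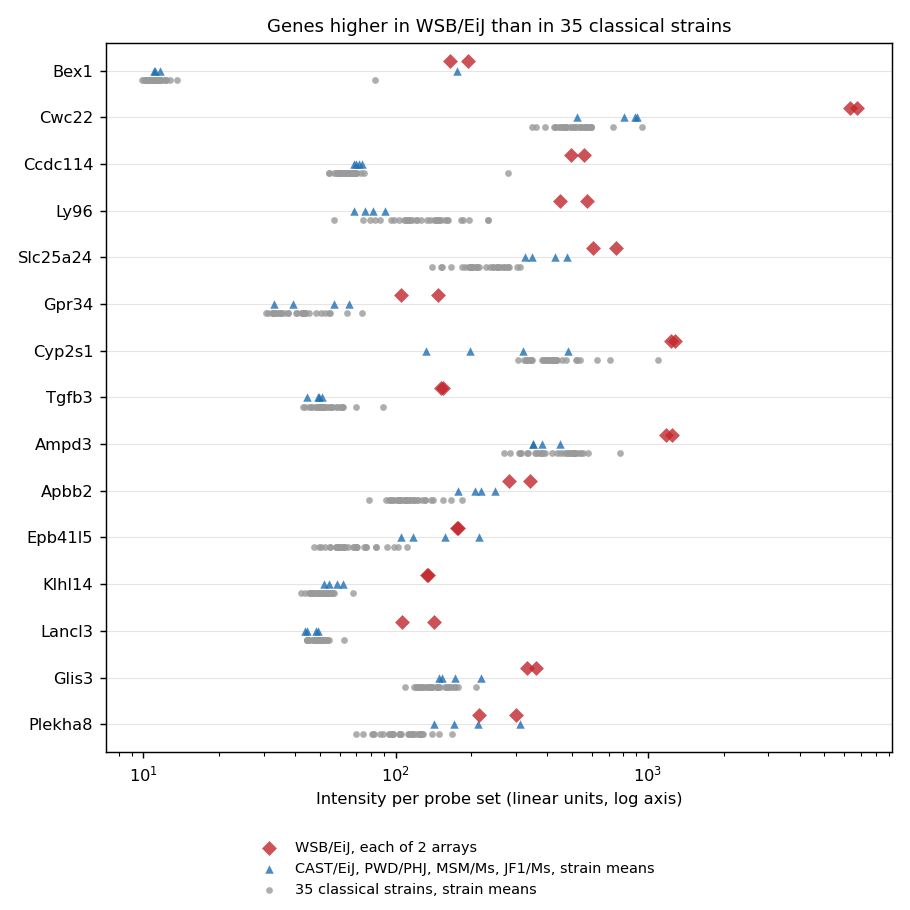
Intensity per probe set on a log axis for the 15 named genes that were higher in WSB/EiJ, with the 2 WSB/EiJ arrays as red diamonds, the 4 strains of other subspecies as blue triangles and the 35 classical strain means as grey circles. Cwc22 stands at 6726 and 6329 in WSB/EiJ and at most at 949 in classical strains; single classical strains reach part of the way for Bex1 (83.1), Ccdc114 (280) and Cyp2s1 (1096).

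Cytosolic ribosomal protein genes tended to lie lower in WSB/EiJ, but the size depended on the scaling. Of 46 measured, 40 lay below the classical mean (55.4 percent of all probe sets did), 10 below all 35 strains (2.8 percent) and 16 had an unadjusted p under 0.05 in the lower direction (2.75 percent). Rpl12 alone was called, against a background of 0.128 percent. The median difference was -0.21, and -0.12 after quantile normalization, when 35 of 46 lay below the mean, 7 below all 35 strains and 11 had an unadjusted p under 0.05. After median centring these counts were 38, 5 and 11, and without WSB/EiJ replicate 2 they were 41, 7 and 11. Rpl7 had 2349.5 and 2134 in WSB/EiJ, against 2308 to 4282 with a median of 3440.1 (-0.61 ± 0.18, limma adjusted p = 0.205), whereas the 4 strains of other subspecies had 5977 to 7178.

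Over all 39 lists, 33 had no gene called, at a background of 0.413 percent of probe sets, and 6 had 1 each. Besides the lists already described, Bhlhe40, a transcription factor of activated T cells, was the 1 gene called of 35 in the list of activation and memory, with 72.2 and 78.2 in WSB/EiJ, against 41.5 to 60.3 (0.59 ± 0.14, limma adjusted p = 0.0461), below the median of all intensities. The Bhlhe40 call was lost without WSB/EiJ replicate 2. No gene was called in the T cell receptor complex (0 of 13, median 0.12) or its signalling genes (0 of 29, median 0.09). The same held for regulatory T cell genes (0 of 17, median 0.09) and naive T cell genes (0 of 21, median 0.05). The median over all probe sets was -0.02. By list mean these lists ranked, in that order, 6, 4, 8 and 2 of 36 from the top. Of the naive genes 3 lay above all 35 strains, against 3.07 percent of all probe sets, and 0 below. In that list 4 had an unadjusted limma p under 0.05 in the higher direction (2.87 percent) and 0 in the lower. In the naive list Dapl1 had 9341 and 10141 in WSB/EiJ, against 2472 to 8774 in classical strains, and Sidt1 had 3619.6 and 3564, against 1217 to 3248. Neither passed the test (adjusted p = 0.883 and 0.561) although both WSB/EiJ arrays lay above all classical strain means, as the WSB/EiJ mean did on 3.07 percent of all probe sets.

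The second comparison asked whether WSB/EiJ also differed from the 4 strains of other subspecies. It uses the same WSB/EiJ arrays, so the genes chosen above had an advantage in it, and the counts are given as description. Over all probe sets 223 passed limma (0.895 percent), 135 higher in WSB/EiJ (0.542 percent) and 88 lower (0.353 percent). Of the 15 named genes that rose against classical strains 10 were also higher than the 4, and of the 15 that fell 6 were also lower. Both WSB/EiJ arrays lay above all 4 strain means in 12 of the 15 that rose, against 10.7 percent of all probe sets, and below all 4 in 9 of the 15 that fell, against 13.7 percent.

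Those higher in both comparisons included Cwc22 (3.10 ± 0.30 against the 4, limma adjusted p = 2.25e-09), Ccdc114 (2.89 ± 0.39), Ly96 (2.69 ± 0.46), Tgfb3 (1.65 ± 0.21) and Lancl3 (1.40 ± 0.11), and the other 5 were Cyp2s1, Ampd3, Gpr34, Klhl14 and Glis3, with differences of 1.01 to 2.31. Those lower in both were Trav7d-4 (-4.53 ± 0.44, adjusted p = 2.53e-09), Cdc14b (-3.72 ± 0.50), Zfp738 (-2.57 ± 0.49), Izumo4 (-1.25 ± 0.16), Atp10d (-1.10 ± 0.24) and Ms4a4b. Ms4a4b was lower on average (-4.61 ± 0.95, adjusted p = 0.00454), yet MSM/Ms had as little of it as WSB/EiJ. In other genes that fell, WSB/EiJ lay close to at least some of the 4 strains and did not pass against them. Tnfrsf25 had 385 and 343 in WSB/EiJ, against 349 to 376 in the 4 (0.01 ± 0.16). Cd101 had 57.4 and 71.2, against 62.4 to 77.0 (-0.12 ± 0.21). Hid1, with 145 and 137, lay somewhat below all 4, which had 169 to 218 (-0.42 ± 0.38). Clec2d had 1645 and 1725 in WSB/EiJ, while MSM/Ms and JF1/Ms had less, at 1524 and 1484, and PWD/PHJ and CAST/EiJ more, at 2446 and 3052. Rpl12 had 223 and 204, against 176 in MSM/Ms to 385 in CAST/EiJ. Tmem9b had 806 and 750, against 668 in CAST/EiJ to 1674 in JF1/Ms. Commd8 had 205 and 210, against 223 to 301.

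Epb41l5 (0.30 ± 0.33), Apbb2 (0.56 ± 0.26) and Plekha8 (0.34 ± 0.33) likewise did not pass against the 4, whose Epb41l5 levels of 106 to 215 were at the high end of, or above, those of classical strains. For Nlrc5 the difference was -0.71 ± 0.29 (adjusted p = 0.433) and for H2-T10 -1.26 ± 0.54 (adjusted p = 0.476). A p that misses the threshold does not show that WSB/EiJ and these strains are alike.

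WSB/EiJ was not the strain most often at the extreme when set among the classical strains. Its mean was the highest or the lowest of 36, that is of WSB/EiJ and the classical strains, on 1462 probe sets, 765 highest and 697 lowest. Among classical strains this number ran from 257 in C57BL/6J to 4241 in PL/J, with a median of 1056. A total of 12 classical strains were extreme more often than WSB/EiJ and 23 less often. C57BL/6J is a mean of 5 arrays and SWR/J of 1, and PL/J had the highest mean of the classical strains on 6 of the 8 marker lists of other cells. Classical strains are also related to each other, some more closely than others. The part of these in the counts was not tested. Correlations of WSB/EiJ with the 4 strains of other subspecies, at 0.983 to 0.985, lay at the low end of those with classical strains.

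**Figure D5:**
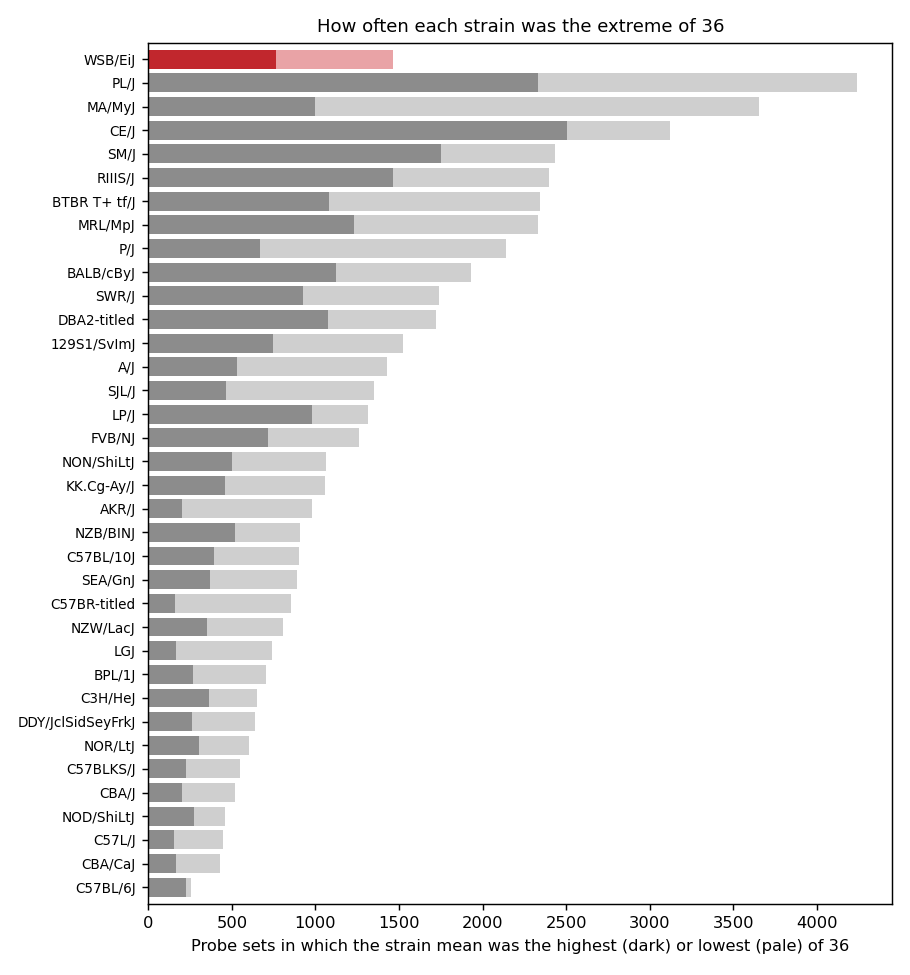
Number of probe sets, from 0, on which each of 36 strains had the highest (dark) or lowest (pale) mean, with WSB/EiJ in red at the top and classical strains in grey sorted by the sum. WSB/EiJ has 1462, between PL/J with 4241 and C57BL/6J with 257.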

How the data were processed

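Affymetrix Power Tools and RMA are the tools that the submitters' processing notes name, while their versions and the probe annotation are not given in the sources used here. Deposited was the authors' normalized linear intensity per probe set, 24922 on each of 82 arrays. The log2 of each value was used with no further scaling and no filter, and averaged per strain group. Depth has no counterpart on arrays, where the number of arrays limits the precision.

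Strain means were compared with limma 3.58.1 in R 4.3.3 (lmFit, eBayes): WSB/EiJ, 1 mean, with 35 classical means (34 residual degrees of freedom, prior 4.08), and, in a model of 3 groups over 40 means, with the mean of 4 strains of other subspecies. Benjamini-Hochberg adjustment ran over every probe set, threshold 0.05. The code was tested on simulated data. The series calls the arrays of a strain biological replicates; p-values measure the spread between strain means, and classical strains are related to each other.

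Symbols came from the platform annotation (21425 probe sets with 1 symbol, 1399 with several, 2098 with none), of which 21347 matched RefSeq, whose GRCm38.p6 table gave current symbols, promoters and gene order. No build is given for the deposited values. Named genes were the 15 largest differences each way among called probe sets with 1 symbol, an established name and a mean above the median of all values in WSB/EiJ or classical strains, 1 probe set (the smallest p) per gene, plus up to 4 called members per list and all Ms4a genes. In lists the brightest probe set stood for a gene. Members and the 39 lists were chosen with earlier results of these data known. Alternatives were other normalizations, offset, filter, prior, replicate block, averaged families, left-out arrays and groups, 1 probe set per symbol and an array-level model.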

Additional observations from a re-analysis of the deposited data

Results flagged for a closer look

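Among the 4 strains of other subspecies, 1 strain stood far from the others for 2 of the 30 named genes tested. The rule sets that strain's gap against the range of the 4 and is meant to flag about 1 group in 20 by chance. A count of 2 in 30 is close to that share. Bex1 had an intensity of 164 and 194 in WSB/EiJ and 176 in CAST/EiJ, while the other 3 strains had 11.1 to 11.7, a gap of 0.98 of the log2 range of the 4. CE/J, at 83.1, was the classical strain with the most. Ms4a4b had 52.7 and 42.7 in WSB/EiJ and 54.1 in MSM/Ms, while the other 3 had 2935 to 3620, a gap of 0.95 of that range. The 3620 was that of JF1/Ms, also of Japanese origin. Whether the strains that share a low or high level share an allele was not tested.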

How the results depend on the processing

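The unit of replication mattered most. With the spread taken between arrays of a strain instead of between strains, 1971 probe sets passed against classical strains, 1026 higher and 945 lower in WSB/EiJ, in place of 103, and 2871 against the 4 strains of other subspecies in place of 223. This follows from the construction of that model, which leaves out the spread between strains. Under the remaining alternatives the counts stayed within 1.5 times: 75 without the dimmest 40 percent of probe sets to 135 without WSB/EiJ replicate 2 against classical strains, and 186 to 297 against the 4, under the same settings. Leaving out each WSB/EiJ array in turn gave 110 to 135 and 246 to 297. Replicate numbers showed no common direction: deviations of WSB/EiJ replicate 1 from its mean correlated with those of the same number in 35 other groups at -0.44 to 0.43, with a median of -0.02. In 14 groups the correlation was above 0.1 and in 14 below -0.1. Whether arrays were grouped in a way that these numbers do not follow was not tested. With the replicate number as a block 102 and 217 probe sets passed. Averaging related classical strains to 23 groups gave 99. Of 30 named genes 26 kept their call in every alternative of 13 that tested them, and no difference reversed. Exceptions were Atp10d, Cd101, Cyp2s1 and Plekha8. Without the dimmest 40 percent of probe sets only 23 of the 30 could be tested, and all 23 kept their call. That filter removed Bex1, Ccdc114, Gpr34, Tgfb3, Epb41l5, Klhl14 and Lancl3, all genes that rose, so it says nothing of them. With the offset of 32 the folds of Bex1, Ms4a4b and Zfp738 shrank by over 1.5 times (log2 2.24, -5.26 and -1.76), that of Bex1 the most. With 1 strain of 2 pools, results speak of WSB/EiJ as sampled here, and dim probe sets give little more than background.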

Other observations

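Beyond the genes already described, called genes with moderate or high intensity covered several cellular functions, named here after their values were seen. Psmf1, an inhibitor of the proteasome, had 1619 and 1640 in WSB/EiJ, against 684 to 1087 in classical strains (0.93 ± 0.14, limma adjusted p = 1.11e-04). Ddx18, an RNA helicase of ribosome assembly, had 928 and 966, against 458 to 635 (0.87 ± 0.10, adjusted p = 8.61e-08). Asap1, a regulator of Arf GTPases, had 1532 and 1580, against 685 to 1052 (0.83 ± 0.14, adjusted p = 6.69e-04). Gyg, glycogenin, had 1009 and 983, against 377 to 648, and the 4 strains of other subspecies had 928 to 1291. Dclre1b, the Apollo nuclease that protects telomere ends, fell, with 345 and 286 in WSB/EiJ, against 429 to 572 (-0.66 ± 0.11, adjusted p = 6.69e-04). Pole, the catalytic subunit of a replicative DNA polymerase, had 183 and 178, against 74.8 to 125, while JF1/Ms had 421. The chemokine gene Cxcl17 had 215 and 281, against 89.6 to 136, and Themis2, a signalling adaptor best known from B cells and macrophages, had 168 and 118, against 64.9 to 107.

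Called genes were sometimes neighbours. In the order of 19672 genes that have a probe set of 1 symbol, 6 pairs of the 87 called genes lay at most 3 places apart, and both members went the same way in all 6. The pairs that rose were Fkbp14 with Plekha8, Lancl3 with Xk and Smpdl3b with Themis2. The pairs that fell were Cdc14b with 1810034E14Rik, Commd8 with Atp10d and 9330175E14Rik with Nlrc5. Fkbp14 had 89.1 and 102 in WSB/EiJ, against 29.0 to 40.1 in classical strains (1.48 ± 0.12, limma adjusted p = 6.20e-11), and 1810034E14Rik had 43.3 and 44.5, against 86.1 to 254 (-1.92 ± 0.35, adjusted p = 0.00150). Whether such pairs share a transcript, a probe or a variant was not tested, and how many pairs other gene choices would give was not tested.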
